A study of Homo sapiens with 9 samples.

Results

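The 59 genes described here act in mitosis. They encode the kinases, cyclins and phosphatases that drive entry into mitosis, the checkpoint and anaphase machinery, kinetochore and centromere proteins, the chromosomal passenger complex, mitotic kinesins, spindle and cytokinesis proteins, condensin and chromosome-structure proteins, and 2 transcription factors of this gene program. The genes were taken by symbol from a list of G2/M genes and sorted by role. This list and the gene lists set beside it were chosen with earlier results of these data known. All 59 were among the 26475 symbols of the count table, and all 59 were among the 16417 genes with enough counts to be tested. The cells were A375, an established human melanoma cell line with mutated BRAF, and the compound was TP-472, which blocks the bromodomains of BRD9 and BRD7. Control cells received DMSO and treated cells TP-472 at 5 or 10 µM, in each case over 24 h, and every group has 3 libraries that the design calls biological replicates. The data therefore cover a single line at a single time. The question was how far transcripts of the mitotic program differed between cells with and without the inhibitor, and between its doses.

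Most of these genes are transcribed periodically and peak in G2 and mitosis. At G1 and in resting cells they are kept low by complexes built on the MuvB core, which bind a short promoter element called the cell cycle genes homology region (CHR), often near CCAAT boxes bound by NF-Y. In late S phase and G2 the same core joins with MYBL2 and FOXM1 and the genes are switched on. Their summed mRNA is commonly read as a measure of proliferation. In RNA from a whole culture, fewer cells in G2 and mitosis and less mRNA per cell in those phases cannot be told apart.

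The expected counts summed to 42483091 to 51298130 per library, so the listed genes were measured at high depth. Mean levels of the 59 genes in DMSO ran from 6.16 to 507 CPM, counts per 1000000 counts of a library after TMM scaling. The melanocyte lineage factor SOX10 was present (mean of 417 CPM in DMSO, 391 CPM at 10 µM), whereas the pigment genes TYR and DCT were at 0 in every DMSO library and MLANA at 0.17 CPM. The other listed lineage genes had DMSO means of 31.9 CPM (MITF), 7.09 CPM (S100B), 1.48 CPM (PMEL) and 0.33 CPM (TYRP1). Of 12 markers of keratinocytes, fibroblasts, blood and endothelium, CD3E was at 0 throughout and 9 could be tested. At 10 µM 1 of them was higher (CD68, a lysosomal protein used as a macrophage marker, with means of 55.8 and 105 CPM) and 1 was lower (PDGFRA, 3.31 and 0.98 CPM). Only CD68 was called at 5 µM, also higher (mean of 83.9 CPM). The summed level of the 12 markers ran from 71.4 to 74.8 CPM across DMSO libraries, from 99.8 to 101 CPM for 5 µM and from 99.8 to 148 CPM for 10 µM, and without CD68 the ranges were 16.2 to 18.1, 15.4 to 17.8 and 12.7 to 18.2 CPM. CDKN1A, which encodes the CDK inhibitor p21, had means of 158, 549 and 775 CPM in DMSO and at 5 and 10 µM (log2 fold change at 10 µM 2.30 ± 0.10 SE, adjusted p = 3.12e-07). This and every adjusted p below is from the quasi-likelihood test of edgeR, adjusted by Benjamini-Hochberg over all genes tested. The part of CDKN1A and of the markers in the results below was not tested. The library 10 µM replicate 1 stood apart. Transcript length and GC content explained 10.3% of the variance of its gene levels around the mean of the 10 µM libraries. The shares, each around the mean of the group, were 4.48% and 5.16% in the other 10 µM libraries and at most 0.46% elsewhere. The fold changes that replicate 1 moved most are also given without it.

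The promoters of these genes carried the CHR letters far more often than promoters at large. RefSeq promoter windows (GRCh38.p14, 250 bases before to 50 bases after the start of each gene) were matched for 52 of the 59 genes and left AURKA, TTK, UBE2C, CENPM, BIRC5, TPX2 and FOXM1 without an entry. The CHR letters TTTGAA, searched on both strands, were present in 35 windows (67.3%), against 10.1% of the 11784 windows of tested genes and 15.4% of all 27305 windows in the table. With the variant TTCGAA, which reads the same on both strands, 37 windows (71.2%) held a CHR form, against 11.6% of tested genes and 16.6% of all windows. Within 50 bases of the start the share was 53.8% against 3.33% of tested genes. The CCAAT letters, searched on both strands, were in 71.2% of the windows, against 36.7% of tested genes and 35.7% of all windows. For 43 DNA replication genes, of which 38 had a window, the share with a CHR form was 5.26% and the share with CCAAT was 55.3%. A match says only that the letters were present in the window.

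The promoters of the 3 genes with the lowest log2 fold change at 10 µM (TOP2A, ASPM and SPC24) and of the 2 with the highest among genes with a window (PTTG1 and CDC20, CENPM having none) are shown for comparison, from 160 bases before to 30 bases after the start. They lie at chr17:40417867-40418056 (TOP2A, minus strand), chr1:197146640-197146829 (ASPM, minus strand), chr19:11155753-11155942 (SPC24, minus strand), chr1:43358821-43359010 (CDC20, plus strand) and chr5:160421695-160421884 (PTTG1, plus strand) of GRCh38.p14. Each is written 5′ to 3′ on the strand of its gene, and capitals mark CHR forms and CCAAT boxes on either strand, so that TTCAAA and ATTGG are the reverse reading of TTTGAA and CCAAT.
TOP2A: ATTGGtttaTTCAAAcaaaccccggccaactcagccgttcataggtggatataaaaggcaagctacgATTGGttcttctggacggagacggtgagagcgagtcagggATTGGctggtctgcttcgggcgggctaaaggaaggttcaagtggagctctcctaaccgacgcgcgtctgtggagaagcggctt
ASPM: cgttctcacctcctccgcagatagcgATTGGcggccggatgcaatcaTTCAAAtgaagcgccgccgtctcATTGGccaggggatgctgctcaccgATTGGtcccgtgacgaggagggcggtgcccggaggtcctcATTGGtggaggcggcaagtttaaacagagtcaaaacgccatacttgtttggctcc
SPC24: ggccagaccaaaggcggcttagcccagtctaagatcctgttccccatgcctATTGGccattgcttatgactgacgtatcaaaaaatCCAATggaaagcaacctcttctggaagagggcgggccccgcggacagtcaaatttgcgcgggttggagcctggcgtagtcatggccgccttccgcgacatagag
CDC20: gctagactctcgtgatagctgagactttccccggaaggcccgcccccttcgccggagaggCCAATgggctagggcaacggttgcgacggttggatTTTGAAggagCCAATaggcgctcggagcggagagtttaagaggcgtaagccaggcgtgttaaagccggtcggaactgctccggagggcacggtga
PTTG1: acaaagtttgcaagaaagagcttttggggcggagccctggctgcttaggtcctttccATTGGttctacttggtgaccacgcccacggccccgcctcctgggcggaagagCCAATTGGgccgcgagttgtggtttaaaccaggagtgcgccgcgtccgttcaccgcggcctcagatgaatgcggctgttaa
Of these promoters, TOP2A, ASPM and CDC20 held a CHR form while SPC24 and PTTG1 held none in the whole window, and all 5 held CCAAT letters. None of the CHR forms lay within 50 bases of the start. With only 5 promoters, chosen by fold change, the comparison cannot show whether the ends of the range differ. TOP2A and CDC20 each held a further copy of TTTGAA upstream of the stretch shown. Over the 52 genes, the 37 with a CHR form had a median log2 fold change of -1.10 at 10 µM (range -1.81 to -0.42) and 37 were called lower, while the 15 without had a median of -0.96 (range -1.76 to -0.17) and 14 were called lower. Outside the mitotic and replication lists, 333 tested genes had a CHR form within 50 bases of the start, of which 24.3% were called lower and 13.2% higher at 10 µM. For 950 tested genes with a CHR form elsewhere in the window, the matching shares were 17.2% and 17.1%. The matching shares for 10322 tested genes with no CHR form were 17.7% and 17.2%.

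At 10 µM TP-472 all 59 genes had a lower fitted level than in DMSO, and 57 were called lower at an adjusted p under 0.05, when 18% of the 16417 genes tested were called lower and 16.4% higher. With a fold change of at least 1.5 as well, 56 were called, against 10.5% of all genes. The median log2 fold change over the 59 genes was -0.96, a fold of 0.513, and the range was -1.81 to -0.17, whereas the median of all genes tested was 0.01. For 29 genes the fitted level was at or below 0.5 times that in DMSO. In 58 genes the 3 libraries of 10 µM were all below the 3 of DMSO, a separation seen in that direction for 26% of all genes. None was called higher, and none was higher at an unadjusted p under 0.05 or with DESeq2. Without 10 µM replicate 1, all 59 were called lower and the median was -1.01, beside 25.8% of all genes called lower in that fit.

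At 5 µM the median difference was smaller. The fitted level was below DMSO for all 59, with a median log2 fold change of -0.52 (a fold of 0.699) and a range of -0.98 to -0.12. Of these, 37 were called lower and 0 higher, when 5.81% of all genes were called lower and 4.4% higher, and 0 were higher at an unadjusted p under 0.05 or with DESeq2. A fold of at least 1.5 was reached by 15 of the called genes, against 2.72% of all genes. The 3 libraries of 5 µM were all below DMSO in 58 genes, a separation shown by 25% of all genes. The number of calls moved with single libraries more than the fold changes did. It was 58 without 10 µM replicate 1, with only TTK not called, when 17.6% of all genes were called lower. Genes given below as not called at 5 µM are so in the fit of all libraries. Without DMSO replicate 1, 2 or 3 the number of calls was 21, 14 and 17. Without 5 µM replicate 1, 2 or 3 it was 20, 18 and 21. The share of all genes called lower in these 6 fits was 2.43% to 2.99%, so calls were fewer over all genes as well. When DMSO and 5 µM were fitted alone, all 59 were called, beside 20.7% of all genes.

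Between the doses, 57 genes were lower at 10 µM than at 5 µM, with a median log2 fold change of -0.53 (a fold of 0.692). The test of that difference called 42 lower and 0 higher, when 5.53% of all genes were called lower and 2.87% higher, and 0 were higher at an unadjusted p under 0.05 or with DESeq2. The range was -1.10 (ASPM) to 0.13 (PTTG1), and 24 of the called genes reached a fold of at least 1.5, against 2.59% of all genes. The libraries of the doses were separated in that direction in 49 genes, against 16.2% of all genes. The count was 24, 24 and 25 without 5 µM replicate 1, 2 or 3, and 53 without 10 µM replicate 1, when 15.4% of all genes were called lower. Without a 5 µM library the share of all genes called lower was 2.31% to 2.39%. When only the 2 doses were fitted, 17 were called, beside 1.38% of all genes. Both comparisons with DMSO share the same 3 control libraries, and the comparison of doses shares the 5 µM libraries, so the 3 sets of values are not independent.

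Summed over the 59 genes, DMSO libraries held 6430 to 6575 CPM, those of 5 µM held 4498 to 4529 CPM and those of 10 µM held 2773, 3077 and 3115 CPM. The groups did not overlap, and the genes moved through the doses in steps. For 48 genes every DMSO library was above every 5 µM library and every 5 µM library was above every 10 µM library. The other 11 were AURKB, CDC25C, CDKN3, TTK, PTTG1, CENPA, CENPI, CENPM, SPC25, CDCA8 and KIF22. Over all genes tested, this joint order was not counted. Taken singly, all libraries of 5 µM were below DMSO for 25% of all genes, and all of 10 µM below 5 µM for 16.2%. The spread between libraries of a group was widest at 10 µM, with a median coefficient of variation over the genes of 2.85% in DMSO, 4.90% at 5 µM and 15.3% at 10 µM. Replicate 1 was the lowest of the 3 libraries of 10 µM for 36 genes and the highest for 19. The coefficient was not computed without replicate 1, so a widening with dose cannot be told from the effect of that library.

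**Figure D1:**
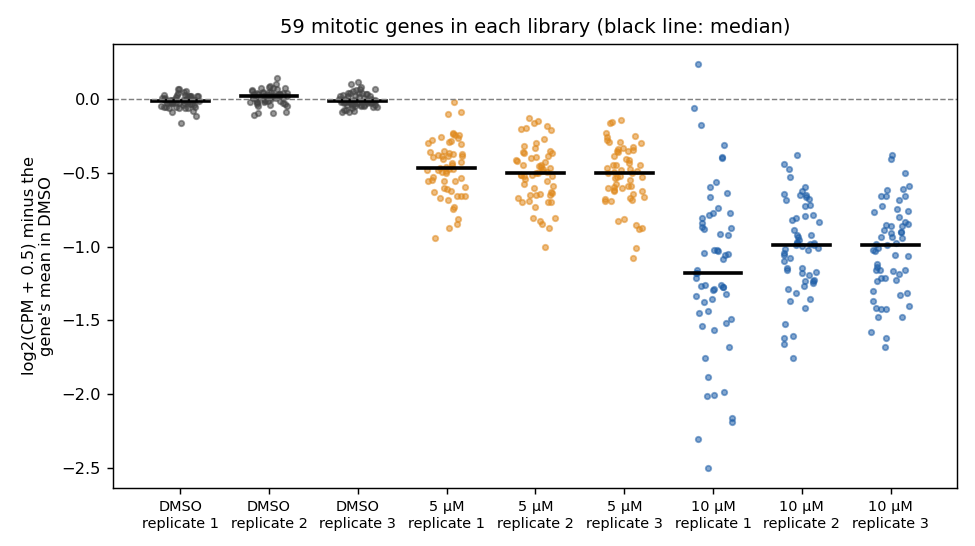
Each point is 1 of the 59 mitotic genes in 1 library, on the log2(CPM + 0.5) scale minus the mean of the gene in DMSO, and the black line is the median of the library. The medians lie at -0.01, 0.02 and -0.01 in DMSO, at -0.47, -0.50 and -0.50 at 5 µM and at -1.18, -0.99 and -0.99 at 10 µM, and the points of 10 µM replicate 1 spread widest.

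The kinases, cyclins and phosphatases that start and time mitosis were lower as a group. All 13 were called lower at 10 µM, with a median log2 fold change of -1.10, and 11 were called at 5 µM, with a median of -0.56. Beside these and the counts of the other roles below, 18% of all genes were called lower at 10 µM and 5.81% at 5 µM. PLK1, the kinase that drives centrosome maturation, spindle assembly and mitotic exit, stood at 154, 147 and 148 CPM in DMSO, 117, 116 and 113 CPM at 5 µM and 64.2, 65.0 and 59.7 CPM at 10 µM. Its libraries were tightly grouped, and each dose stood below the last. The log2 fold change was -0.37 ± 0.07 (SE, adjusted p = 0.0067) at 5 µM and -1.25 ± 0.07 (adjusted p = 1.31e-06) at 10 µM, and the step between the doses was -0.87 ± 0.07 (adjusted p = 9.75e-05). NEK2, a centrosomal kinase that separates the centrosomes at mitotic entry, had the lowest log2 fold change of this group at 10 µM and stood at 47.2, 48.9 and 46.2 CPM in DMSO, 33.9, 31.0 and 29.4 CPM at 5 µM and 18.2, 16.1 and 17.5 CPM at 10 µM. Every library of a higher dose was below those of the lower. Its log2 fold change was -0.59 ± 0.08 (adjusted p = 0.00204) at 5 µM and -1.46 ± 0.09 (adjusted p = 1.98e-06) at 10 µM.

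The core of the mitotic engine is CDK1 with its cyclins. CDK1 itself changed by -0.73 ± 0.10 at 5 µM (adjusted p = 0.00141) and by -1.39 ± 0.10 at 10 µM (adjusted p = 6.18e-06) on the log2 scale, from 86.7 to 33.1 CPM. Among the cyclins the size of the fall at 10 µM differed, from -1.23 for CCNA2 (cyclin A, S phase to early mitosis) and -1.24 for CCNF (cyclin F, a substrate receptor of a ubiquitin ligase) through -1.10 for CCNB2 to -0.74 for CCNB1 (cyclin B, the main partner of CDK1 in mitosis). All 4 were called at 10 µM, and CCNB1 was not called at 5 µM (-0.24, adjusted p = 0.0845). The Aurora kinases stood at -0.81 for AURKA, which acts at spindle poles, and -0.96 for AURKB, which acts at centromeres and the midzone. PLK4, the master kinase of centriole duplication, was at -1.24 and CDC25B, a phosphatase that activates CDK1, at -0.94. The CDK-directed phosphatase CDKN3 was at -0.83, with means of 14.0, 8.97 and 7.90 CPM in DMSO and at 5 and 10 µM and no call between the doses (adjusted p = 0.525).

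CDC25C, the other CDK1-activating phosphatase in the list, had the largest p of its group at 10 µM. It stood at 10.6, 12.6 and 12.6 CPM in DMSO, 6.38, 6.37 and 6.22 CPM at 5 µM and 7.87, 5.46 and 4.12 CPM at 10 µM. Both doses were below DMSO in every library, and the doses overlapped. The log2 fold changes were -0.91 ± 0.21 (adjusted p = 0.0208) at 5 µM and -1.03 ± 0.21 (adjusted p = 0.00375) at 10 µM, and that between the doses was -0.12 ± 0.21 (adjusted p = 0.762), which became 0.08 without 10 µM replicate 3.

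**Figure D2:**
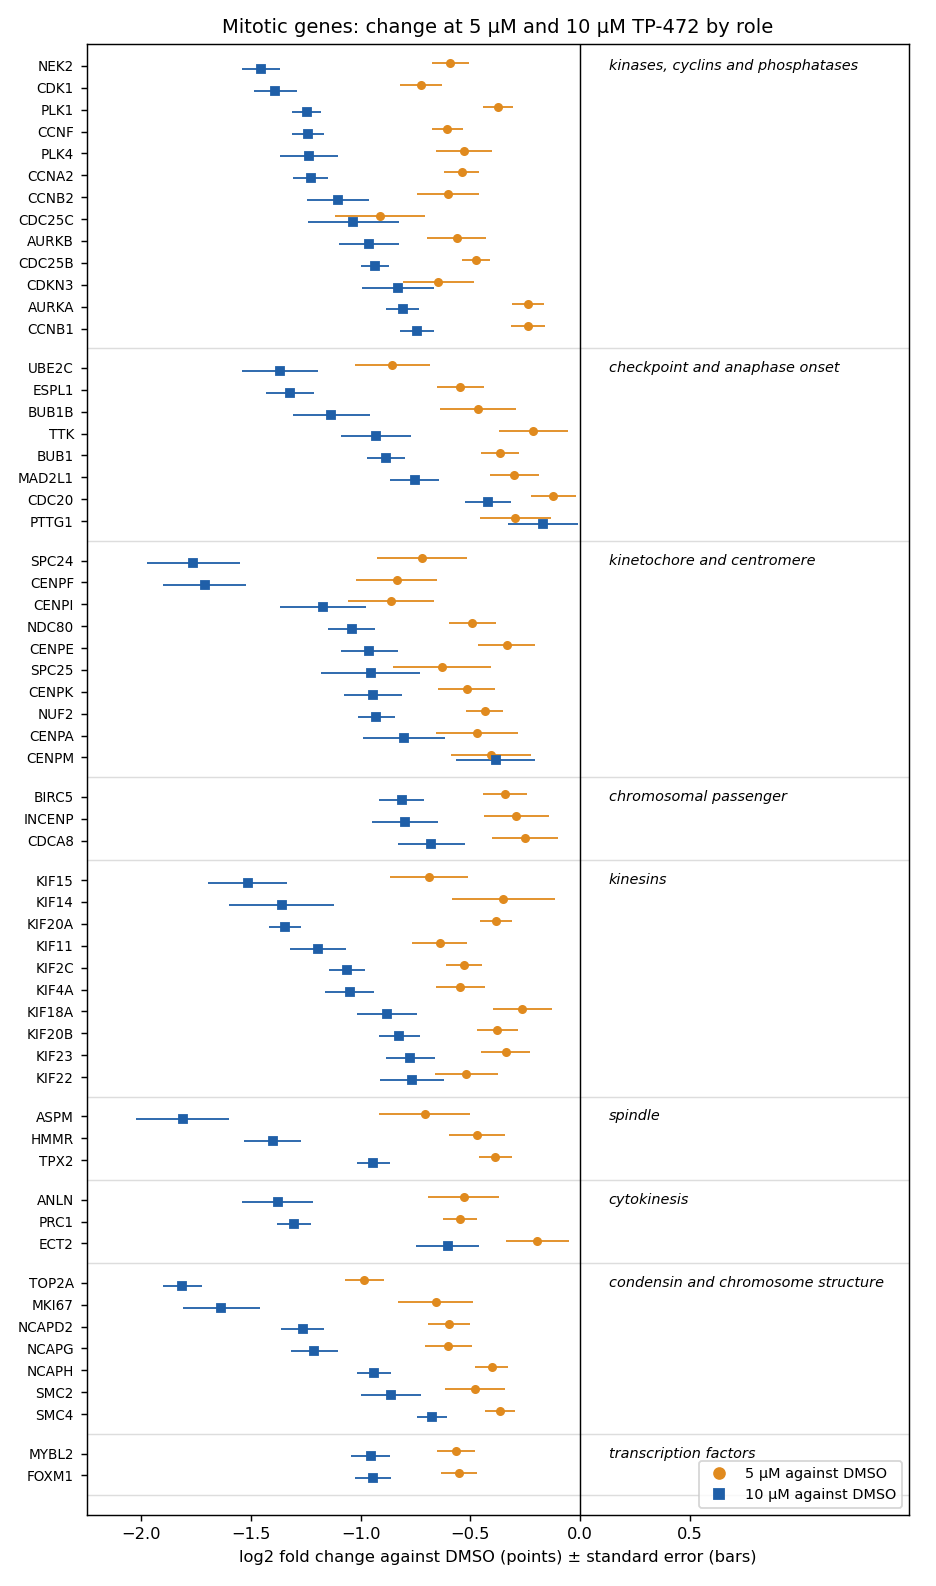
Log2 fold change against DMSO at 5 µM (orange circles) and 10 µM (blue squares) for the 59 mitotic genes, grouped by role, with bars of 1 standard error. All points lie below 0, and at 10 µM they run from -1.81 for TOP2A to -0.17 for PTTG1.

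Genes of the spindle checkpoint and of anaphase onset spread widely, from -1.37 for UBE2C to -0.17 for PTTG1 at 10 µM. Of 8, 7 were called lower at 10 µM and 3 at 5 µM, with medians of -0.91 and -0.33. BUB1, a checkpoint kinase at the kinetochore, stood at 61.2, 61.7 and 64.1 CPM in DMSO, 48.3, 45.6 and 51.4 CPM at 5 µM and 30.4, 36.0 and 34.8 CPM at 10 µM. The 3 groups were separate, and the log2 fold change was -0.36 ± 0.09 (adjusted p = 0.0256) at 5 µM and -0.88 ± 0.09 (adjusted p = 5.34e-05) at 10 µM. The checkpoint genes BUB1B, MAD2L1 and TTK were at -1.13, -0.75 and -0.93 at 10 µM, all called there, and at -0.47, -0.30 and -0.21 at 5 µM, none called. Without 10 µM replicate 1, BUB1B and MAD2L1 were called lower at 5 µM (adjusted p = 3.01e-06 and 0.0129) and TTK was not (adjusted p = 0.0637). Of the exons of BUB1B, 10.2% overlap a readthrough gene on the same strand.

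Transcripts for the proteins that release sister chromatids did not move alike in size, and the differences between these genes were not tested. ESPL1, the separase that cuts cohesin, stood at 62.3, 66.2 and 64.5 CPM in DMSO, 40.3, 47.2 and 44.6 CPM at 5 µM and 21.8, 28.3 and 27.0 CPM at 10 µM. It was lower in steps without overlap, with log2 fold changes of -0.55 ± 0.11 (adjusted p = 0.0103) and -1.32 ± 0.11 (adjusted p = 1.57e-05). UBE2C, the ubiquitin-conjugating enzyme of the anaphase-promoting complex (APC/C), was at -0.86 at 5 µM and -1.37 at 10 µM, both called. CDC20, the APC/C activator that the checkpoint holds back, stood at 175, 176 and 175 CPM in DMSO, 163, 160.4 and 159 CPM at 5 µM and 155, 121 and 116 CPM at 10 µM. Its groups did not overlap but were close, with log2 fold changes of -0.12 ± 0.10 at 5 µM (adjusted p = 0.542) and -0.42 ± 0.10 at 10 µM (adjusted p = 0.0107), and without 10 µM replicate 1 the second was -0.56.

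PTTG1, the securin that keeps separase inactive, was 1 of the 2 genes not called at 10 µM. It stood at 78.1, 81.3 and 78.6 CPM in DMSO, 67.8, 61.4 and 64.7 CPM at 5 µM and 93.7, 57.0 and 61.0 CPM at 10 µM. Replicate 1 at 10 µM was above all DMSO libraries, and the other 10 µM libraries were below them. The log2 fold change was -0.30 ± 0.16 at 5 µM (adjusted p = 0.305) and -0.17 ± 0.16 at 10 µM (adjusted p = 0.457), and without 10 µM replicate 1 it was -0.30 (adjusted p = 0.000266) and -0.43 (adjusted p = 1.19e-05). PTTG1 has near-identical copies in the genome, so the counts assigned to it are uncertain to that extent.

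At the kinetochore and centromere, 9 of 10 genes were called lower at 10 µM and 5 at 5 µM, with medians of -0.96 and -0.50. The NDC80 complex, which grips the ends of spindle microtubules, is complete in the list, and all 4 of its subunits were called lower at 10 µM. NDC80 stood at 34.7, 33.0 and 34.6 CPM in DMSO, 27.5, 22.8 and 22.5 CPM at 5 µM and 14.8, 16.9 and 18.03 CPM at 10 µM. NUF2, its direct partner, stood at 60.8, 61.2 and 59.5 CPM in DMSO, 44.8, 44.1 and 45.3 CPM at 5 µM and 35.2, 31.4 and 28.7 CPM at 10 µM. The pair was lower at each dose without overlap, with log2 fold changes of -0.49 ± 0.11 and -0.44 ± 0.08 at 5 µM (adjusted p = 0.0172 and 0.0101) and -1.04 ± 0.11 and -0.93 ± 0.09 at 10 µM (adjusted p = 7.37e-05 and 3.37e-05). SPC24, which anchors the complex at the kinetochore, was among the least abundant genes and among the most changed, at 8.29, 9.63 and 8.16 CPM in DMSO, 6.22, 5.04 and 4.58 CPM at 5 µM and 1.82, 2.94 and 2.91 CPM at 10 µM. The groups of SPC24 did not overlap. Its log2 fold change was -0.72 ± 0.20 (adjusted p = 0.0525) at 5 µM and -1.76 ± 0.21 (adjusted p = 0.00019) at 10 µM. Its partner SPC25 was at -0.63 (adjusted p = 0.113) and -0.95 (adjusted p = 0.00914).

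CENPF, a large kinetochore and nuclear matrix protein, was at -0.84 at 5 µM and -1.71 at 10 µM, from 397 to 121 CPM, and -1.49 at 10 µM without replicate 1. CENPE, the kinetochore kinesin that aligns chromosomes, was at -0.34 and -0.96, called at 10 µM alone. Without 10 µM replicate 1 it was called lower at 5 µM too (adjusted p = 0.00116). The centromere-bound CENPI and CENPK were called at both doses, at -1.17 and -0.94 for 10 µM, and CENPA, the centromeric histone H3 variant, was called at 10 µM (-0.80, adjusted p = 0.00834) but not at 5 µM (-0.47, adjusted p = 0.15). CENPM, another protein of the inner kinetochore, was the second gene not called at 10 µM. It stood at 10.8, 11.9 and 11.2 CPM in DMSO, 8.52, 9.80 and 7.27 CPM at 5 µM and 10.8, 8.59 and 6.54 CPM at 10 µM. The 10 µM libraries spread over almost the whole range from DMSO downwards, and the log2 fold change was -0.39 ± 0.18 (adjusted p = 0.13), or -0.58 (adjusted p = 0.00424) without 10 µM replicate 1.

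The chromosomal passenger complex, which corrects faulty attachments and later guides cytokinesis, is represented beside AURKB by INCENP, BIRC5 and CDCA8. All 3 were called lower at 10 µM (median -0.80). At 5 µM edgeR called 0 of the 3 (median -0.29), with 1 at an unadjusted p under 0.05, and DESeq2 called 1. INCENP, the scaffold, stood at 99.6, 98.0 and 95.2 CPM in DMSO, 81.5, 78.3 and 79.6 CPM at 5 µM and 40.3, 64.5 and 63.4 CPM at 10 µM. BIRC5, also called survivin, stood at 76.8, 75.8 and 77.4 CPM in DMSO, 64.9, 59.9 and 56.6 CPM at 5 µM and 49.1, 37.8 and 43.9 CPM at 10 µM. Neither gene had overlapping groups, and replicate 1 at 10 µM was the lowest of its group for INCENP and the highest for BIRC5. The log2 fold changes at 10 µM were -0.80 ± 0.15 (adjusted p = 0.00284) and -0.81 ± 0.10 (adjusted p = 0.000229). CDCA8, the borealin subunit, was at -0.68 (adjusted p = 0.0068).

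All 10 mitotic kinesins, the motors that build the spindle and move chromosomes, were called lower at 10 µM (median -1.06), and 7 at 5 µM (median -0.45). KIF20A, the midzone motor that brings the passenger complex to the site of cleavage, stood at 92.8, 101 and 101 CPM in DMSO, 74.1, 76.6 and 74.9 CPM at 5 µM and 38.5, 40.5 and 36.7 CPM at 10 µM. Libraries of each group lay close together and away from the other groups. Its log2 fold change was -0.38 ± 0.07 (adjusted p = 0.0087) at 5 µM and -1.35 ± 0.07 (adjusted p = 1.32e-06) at 10 µM. The step from 5 to 10 µM was -0.96 ± 0.07 (adjusted p = 8.88e-05), the smallest p between the doses in the list. KIF2C, which depolymerises microtubules at centromeres, stood at 98.4, 104 and 105 CPM in DMSO, 70.4, 69.4 and 72.7 CPM at 5 µM and 54.2, 47.5 and 45.4 CPM at 10 µM. Its steps were alike in size, -0.53 ± 0.08 from DMSO to 5 µM (adjusted p = 0.00304) and -0.53 ± 0.08 from 5 to 10 µM (adjusted p = 0.00409).

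KIF15, which helps to keep spindle poles apart, and KIF14, which acts in cytokinesis, were at -1.51 and -1.36 at 10 µM, and KIF11, the motor that separates the poles in the first place, at -1.20. KIF4A, which organises chromosome arms and the midzone, was at -1.05, KIF18A, which limits microtubule growth at the metaphase plate, at -0.88, KIF20B, which acts late in cytokinesis, at -0.82 and KIF23, of the centralspindlin complex, at -0.77. The 3 kinesins not called at 5 µM were KIF14 (-0.35, adjusted p = 0.421), KIF18A (-0.26, adjusted p = 0.269) and KIF23 (-0.34, adjusted p = 0.0889). Without 10 µM replicate 1 all 3 were called lower at 5 µM (adjusted p = 0.000228, 0.0178 and 0.000283). KIF22, a chromosome-binding motor, had the largest p of the group at 10 µM. It stood at 78.4, 75.6 and 79.1 CPM in DMSO, 55.1, 54.1 and 53.4 CPM at 5 µM and 59.02, 38.9 and 38.9 CPM at 10 µM, so that 10 µM replicate 1 lay above the 5 µM libraries and the others below. The log2 fold change was -0.52 ± 0.14 (adjusted p = 0.049) at 5 µM and -0.77 ± 0.14 (adjusted p = 0.0028) at 10 µM, and -0.9987 at 10 µM without replicate 1. Of the exons of KIF22, 13.0% are covered by an antisense gene.

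The spindle and cytokinesis groups, of 3 genes each, had the lowest median log2 fold changes of all roles at 10 µM but not at 5 µM, and their genes differed in size. The 3 spindle genes had a median of -0.47 at 5 µM (2 called) and -1.40 at 10 µM (3 called), and the 3 cytokinesis genes had medians of -0.53 (1 called) and -1.30 (3 called). ASPM, which focuses the spindle poles, stood at 168, 185 and 169.7 CPM in DMSO, 104, 108 and 108 CPM at 5 µM and 30.4, 56.3 and 62.3 CPM at 10 µM. The groups did not overlap, although the 10 µM libraries of ASPM differed among themselves. Its log2 fold change at 10 µM was -1.81 ± 0.21 (adjusted p = 0.000164), or -1.56 without replicate 1, and at 5 µM it was -0.71 ± 0.21 (adjusted p = 0.0581). HMMR, which binds the spindle and anchors TPX2, stood at 70.8, 68.7 and 69.1 CPM in DMSO, 50.3, 49.4 and 50.8 CPM at 5 µM and 20.3, 28.97 and 29.7 CPM at 10 µM. TPX2, the activator of Aurora A on the spindle, stood at 241, 234 and 233 CPM in DMSO, 179, 177 and 185 CPM at 5 µM and 111, 127 and 130.01 CPM at 10 µM. Both were lower at each dose without overlap, at -0.47 ± 0.13 (adjusted p = 0.043) and -1.40 ± 0.13 (adjusted p = 3.54e-05) for HMMR and -0.39 ± 0.07 (adjusted p = 0.0101) and -0.94 ± 0.08 (adjusted p = 1.35e-05) for TPX2.

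PRC1, which bundles the antiparallel microtubules of the midzone, stood at 172, 172 and 169.6 CPM in DMSO, 117, 120.1 and 115 CPM at 5 µM and 65.8, 66.0 and 76.7 CPM at 10 µM. The 3 groups of PRC1 were separate. Its log2 fold change was -0.55 ± 0.08 (adjusted p = 0.00186) at 5 µM and -1.30 ± 0.08 (adjusted p = 2.01e-06) at 10 µM, and 57.6% of its exons are shared with another annotated gene on the same strand. ANLN, the anillin scaffold of the contractile ring, stood at 240.2, 252 and 247 CPM in DMSO, 168, 173 and 171 CPM at 5 µM and 66.2, 105 and 113 CPM at 10 µM. The DMSO and 5 µM libraries of ANLN were far tighter than those of 10 µM, and its log2 fold change was -0.53 ± 0.16 (adjusted p = 0.0652) and -1.38 ± 0.16 (adjusted p = 0.000171). ECT2, the exchange factor that activates RhoA at the cleavage site, was at -0.20 (adjusted p = 0.477) and -0.60 (adjusted p = 0.00982).

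**Figure D3:**
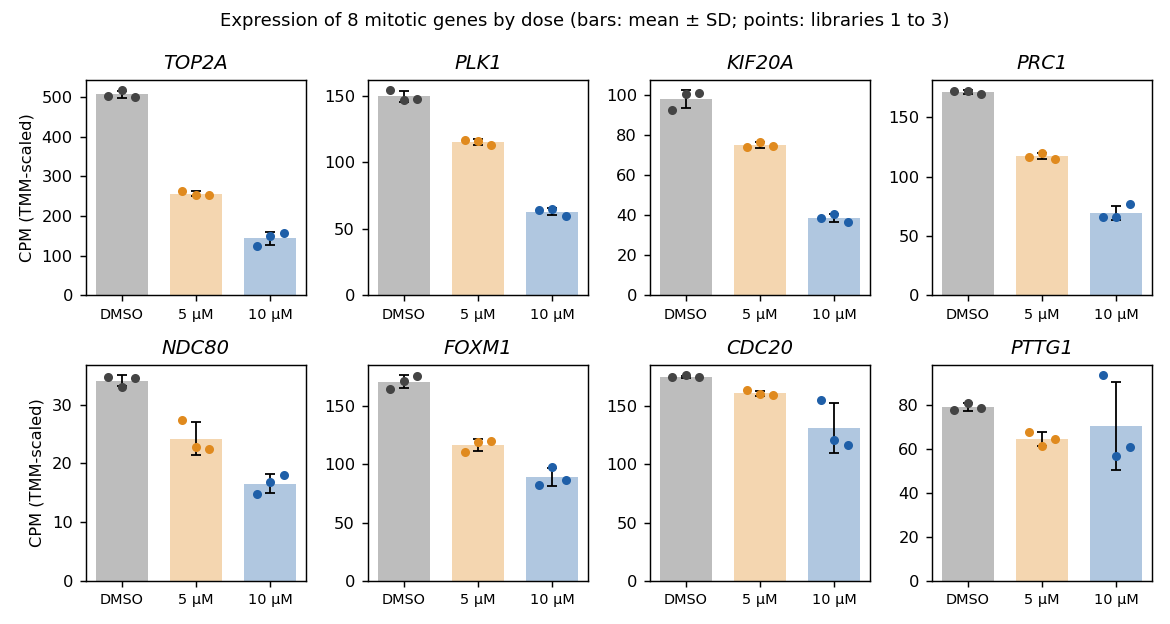
CPM of 8 mitotic genes in DMSO, 5 µM and 10 µM TP-472, with bars for the mean, error bars for the SD and points for the 3 libraries of each group. TOP2A falls from a mean of 507 to 144 CPM and PLK1 from 149.5 to 63.0 CPM with small spread, while CDC20 and PTTG1 show 1 high library at 10 µM.

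Genes of condensin and chromosome structure were called lower in 7 of 7 cases at 10 µM (median -1.21) and in 6 of 7 at 5 µM (median -0.60). TOP2A, the topoisomerase that untangles sister DNA, lies at chr17:40388516-40417950 on the minus strand (GENCODE release 29) and had the highest CPM of the list in DMSO, on a scale that does not correct for length. It stood at 501, 518 and 501 CPM in DMSO, 264, 253 and 252 CPM at 5 µM and 125, 149.7 and 158 CPM at 10 µM. Its level decreased by 49.4% at 5 µM and decreased by 71.6% at 10 µM, the lowest log2 fold changes of the list at both doses, at -0.98 ± 0.09 (adjusted p = 0.000141) and -1.81 ± 0.09 (adjusted p = 7.41e-07). MKI67, the Ki-67 protein that coats mitotic chromosomes and marks cycling cells, was at -0.66 (adjusted p = 0.038) and -1.64 (adjusted p = 8.92e-05), from 348 to 112 CPM.

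Condensin I compacts chromosomes with the SMC2 and SMC4 subunits that it shares with condensin II. NCAPD2, of condensin I, stood at 339, 346 and 351 CPM in DMSO, 227, 229 and 228 CPM at 5 µM and 120.1, 154 and 157 CPM at 10 µM. Its groups were far apart, with log2 fold changes of -0.60 ± 0.10 (adjusted p = 0.00408) and -1.27 ± 0.10 (adjusted p = 1.11e-05). The other condensin I subunits NCAPG and NCAPH were at -1.21 and -0.94 at 10 µM. SMC2 stood at 105, 109.8 and 103 CPM in DMSO, 75.7, 74.7 and 77.4 CPM at 5 µM and 43.9, 63.8 and 67.0 CPM at 10 µM. The shared subunits changed less in value than NCAPD2, at -0.86 ± 0.14 for SMC2 (adjusted p = 0.00102) and -0.68 ± 0.07 for SMC4 (adjusted p = 6.9e-05), and this difference between genes was not tested. Genes on the opposite strand cover 33.1% of the exons of NCAPG, 25.6% of those of SMC4, 15.9% of those of FOXM1, 12.5% of those of PLK1 and 11.8% of those of CCNF, and no source used here says whether reads were counted by strand.

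The transcription factors FOXM1 and MYBL2 (B-MYB), which switch on the program in G2, were themselves lower. FOXM1 stood at 165, 171 and 176 CPM in DMSO, 110.3, 119 and 120.4 CPM at 5 µM and 82.3, 97.4 and 86.8 CPM at 10 µM. MYBL2 stood at 107, 98.4 and 109 CPM in DMSO, 67.9, 75.7 and 68.7 CPM at 5 µM and 58.2, 49.2 and 54.5 CPM at 10 µM. All 3 groups were separate for both genes. The log2 fold changes were -0.55 ± 0.08 and -0.56 ± 0.09 at 5 µM (adjusted p = 0.00232 and 0.00306) and -0.94 ± 0.08 and -0.96 ± 0.09 at 10 µM (adjusted p = 2.18e-05 and 3.35e-05). The step between the doses was -0.39 for each (adjusted p = 0.0173 and 0.024).

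Per kilobase of the longest annotated transcript, the highest levels in DMSO were those of UBE2C (119.6 CPM per kilobase), CDC20 (98.55), CCNB1 (88.35), TOP2A (87.98) and PTTG1 (74.15). The lowest were those of CENPI (1.89), SPC24 (3.755), CDC25C (5.575), SPC25 (5.92) and KIF18A (6.70). At 10 µM the highest were CDC20 (73.7 CPM per kilobase), PTTG1 (66.0), CCNB1 (52.8), UBE2C (46.3) and CDC25B (35.2), and TOP2A (25.02) held rank 11. CDC20 and PTTG1, which held ranks 2 and 5 in DMSO, held ranks 1 and 2 at 10 µM, although CDC20 was the only gene of this pair called lower.

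The size of the fall at 10 µM went with transcript length, and mostly so in 1 library. Replicate 1 was the lowest of the 3 libraries for 36 genes, whose median longest transcript was 4185 bases, and the highest for 19 genes, with a median of 2137 bases. Across the 59 genes the Pearson r between log2 length and the level relative to DMSO was -0.68 in replicate 1, -0.22 in replicate 2 and -0.17 in replicate 3, as a description, since the genes share their library. Without replicate 1 the log2 fold changes at 10 µM shifted by -0.29 to 0.28. By more than 0.15, 9 genes were lower without it, with values of -1.66 for UBE2C, -1.33 for CCNB2, -1.32 for CDC25C, -1.14 for AURKB, -1.05 for CENPA and -0.90 for CDCA8 beside those given for PTTG1, CENPM and KIF22. By the same margin 15 genes were less low without it. Their values were -1.57 for SPC24, -1.42 for MKI67, -1.31 for KIF15, -1.25 for HMMR, -1.18 for ANLN, -1.08 for KIF14 and -1.04 for KIF11, and -0.92 for BUB1B, -0.76 for TTK, -0.72 for SPC25, -0.70 for SMC2, -0.61 for INCENP and -0.43 for ECT2, beside those given for ASPM and CENPF. All 24 were called lower without replicate 1. The 12 genes of at least 5000 bases had a median log2 fold change of -1.29, or -1.12 without replicate 1, and the 18 genes under 2500 bases had -0.94 with and without it. At 5 µM the medians of these long and short genes were -0.51 and -0.50. With a trend in length and GC content removed from all libraries, all 59 genes were called lower at 10 µM, PTTG1 at -0.50 (adjusted p = 0.00146) and CENPM at -0.56 (adjusted p = 0.00695), when 20.9% of all genes were called lower. What set replicate 1 apart was not tested.

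**Figure D4:**
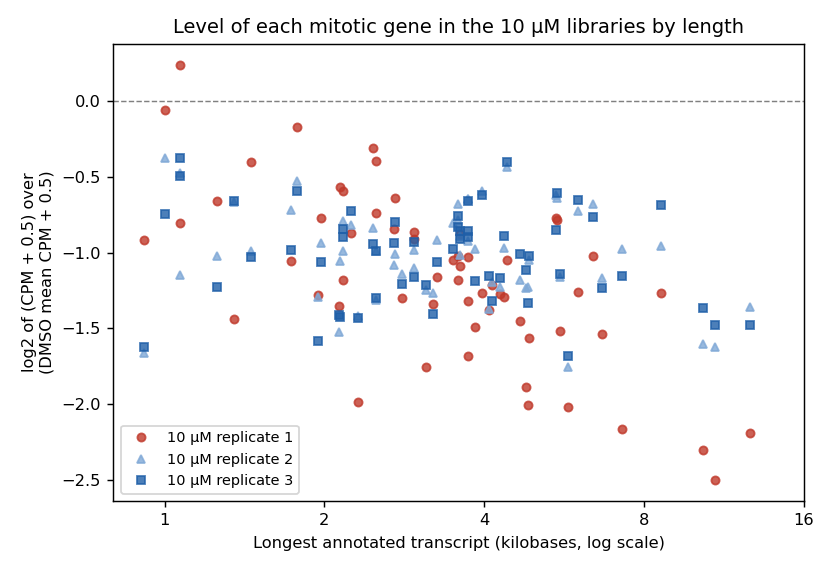
Level of each of the 59 mitotic genes in the 3 libraries of 10 µM relative to the DMSO mean, as log2 of (CPM + 0.5) over (mean CPM + 0.5), against the length of the longest annotated transcript on a log axis. Points of replicate 1 slope downwards (r = -0.68), while those of replicates 2 and 3 are flatter (r = -0.22 and -0.17).

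A list of 111 other mitotic genes, written by function, showed where the fall extended and where it did not. At 10 µM 67 (60.4%) were called lower and 6 (5.41%) higher, beside 18% and 16.4% of all genes, with a median log2 fold change of -0.48. At 5 µM 32 (28.8%) were called lower and 1 (0.901%) higher, beside 5.81% and 4.4% of all genes, with a median of -0.26. Other spindle proteins and kinesins were closest to the 59 genes, with 10 of 11 called lower at 10 µM and a median of -0.98. They included NUSAP1, which bundles spindle microtubules (-1.38 ± 0.07, adjusted p = 8.78e-07), and GTSE1, which stabilises them (-1.14 ± 0.08, adjusted p = 7.35e-06). Other cytokinesis proteins were called lower in 10 of 10 cases (median -1.07), among them CEP55, which recruits the abscission machinery (-0.84, adjusted p = 2.3e-05), and RACGAP1, the partner of KIF23 (-0.83, adjusted p = 5.19e-05). Of 12 other kinases and phosphatases of mitotic entry 7 were called lower, with PBK at -1.18 (adjusted p = 9.79e-06) and MELK at -1.03 (adjusted p = 1.69e-05).

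In the other structural groups the counts varied, and 18% of all genes were called lower at 10 µM. At 10 µM 7 of 17 other inner kinetochore genes were called lower, such as HJURP, the chaperone of CENPA (-0.96, adjusted p = 3.4e-05), and CENPH (-0.77, adjusted p = 0.000158), and 10 of 18 other outer kinetochore and checkpoint genes, such as SPAG5 (-0.87, adjusted p = 2.34e-05) and SPDL1 (-0.67, adjusted p = 0.000111). Of 10 centriole and centrosome genes 9 were called lower (median -0.66), with TACC3 at -0.63 (adjusted p = 0.000327) and CENPJ at -0.49 (adjusted p = 0.00166). Of 8 genes of cohesin and its protection 6 were called lower (median -0.45), led by the cohesin subunit RAD21 (-0.65, adjusted p = 0.000398) and the shugoshin SGOL1 (-0.65, adjusted p = 0.00276). In condensin II 2 of 3 were called lower, NCAPG2 (-1.08, adjusted p = 7.94e-06) and NCAPD3 (-0.85, adjusted p = 0.00209).

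Among 17 subunits and regulators of the APC/C, the ubiquitin ligase that ends mitosis, 4 (23.5%) were called lower and 5 (29.4%) higher at 10 µM, beside 18% and 16.4% of all genes, and the median was 0.14. The count of higher calls ran from 2 to 6 over the alternatives and that of lower calls from 3 to 5, and without 10 µM replicate 1 the median was -0.0021. The smallest p values were those of FBXO5, the APC/C inhibitor EMI1, at -1.08 (adjusted p = 1.25e-05), and ANAPC13, a small subunit, at 0.41 (adjusted p = 0.00307). Of the 5 MuvB core genes, too few to set against those shares, 2 were called lower and 1 higher, with RBBP4 at -0.39 (adjusted p = 0.00197) and LIN37 at 0.87 (adjusted p = 0.00477). Among the 43 DNA replication genes, which act earlier in the cycle, 35 (81.4%) were called lower and 1 (2.33%) higher at 10 µM (median -0.66). At 5 µM 21 (48.8%) were called lower and 0 higher (median -0.32), beside 5.81% and 4.4% of all genes. The medians of the 111 other mitotic genes and of the 43 DNA replication genes lay between those of all genes tested and those of the 59 mitotic genes. No test compared the lists.

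**Figure D5:**
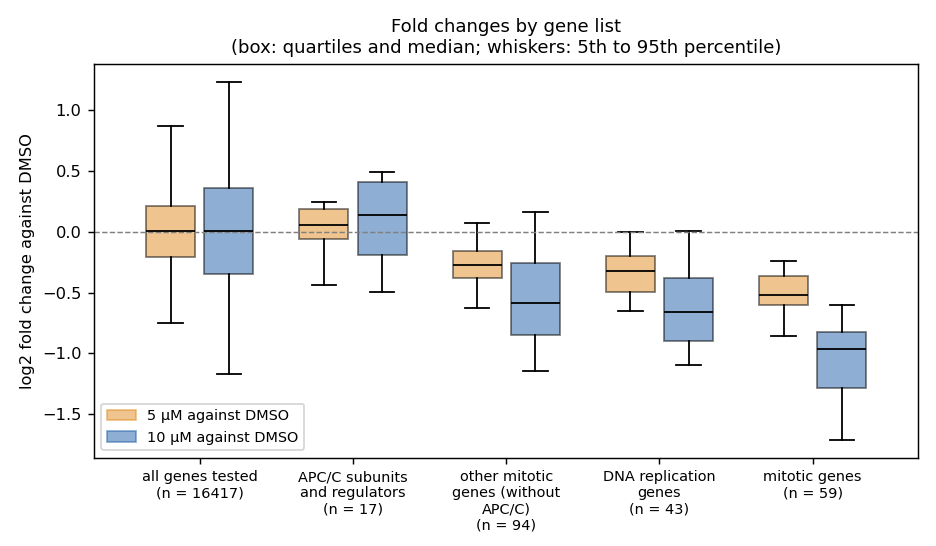
Boxes give the median and quartiles of the log2 fold change against DMSO at 5 µM (orange) and 10 µM (blue), and whiskers run from the 5th to the 95th percentile, for all 16417 genes tested and for 4 gene lists. At 10 µM the medians are 0.01 for all genes, 0.14 for the 17 APC/C genes, -0.66 for the 43 DNA replication genes and -0.96 for the 59 mitotic genes.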

How the data were processed

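Polyadenylated or ribosome-depleted RNA of A375 cells was sequenced after 24 h with DMSO or TP-472 (5 or 10 µM), 3 libraries each. The table that the authors deposited holds RSEM expected counts by gene symbol, with no scaling between libraries. The submitters' processing notes name Bowtie2 2.1.0, RSEM 1.2.15 and the build hg38; for annotation, filters and strand setting: not given in the sources used here. Oligo-dT selection with stranded libraries is described in the protocol and depletion of ribosomal RNA in the design text, and which was used was not settled. Between 10.6% and 13.8% of the values per library were not whole, and all were rounded.

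The quasi-likelihood test of edgeR 4.0.16 (R 4.3.3) was fitted over all 3 groups, with TMM factors (0.957 to 1.029), filterByExpr and Benjamini-Hochberg adjustment over 16417 genes. A gene was called at an adjusted p under 0.05. The SE of a log2 fold change is its size over the root of its F value. The smallest p of an exact permutation of 3 against 3 libraries exceeds that threshold, so single-gene tests rely on variance moderated across genes. They measure the spread between libraries that the design calls biological replicates. Same-numbered libraries did not deviate together (correlations -0.05 to 0.03). Alternatives were RLE and upper-quartile factors, 2 other filters, DESeq2 1.42.0, limma-voom 3.58.1, a likelihood ratio test, a replicate block, fits of 2 groups, removal of a length and GC trend (splines of 4 degrees of freedom), unrounded counts, a threshold of 0.01 and each library left out. The scripts were tested on simulated data. Tables and figures used Python 3.11.15, pandas 2.3.3, numpy 2.4.6 and matplotlib 3.10.9.

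The members and lists were chosen with earlier results of these data known. All 59 genes may be named. Values per library are given for 26 genes, namely in each role the 2 smallest p at 10 µM and, in roles of 7 or more, the largest p, the 3 lowest and 3 highest log2 fold changes, and the 5 smallest p between doses. Of each group of other mitotic genes, up to 2 called genes with the smallest p are named. Coordinates, lengths and overlaps are from GENCODE release 29 and promoter sequences from RefSeq (GRCh38.p14).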

Additional observations from a re-analysis of the deposited data

How the results depend on the processing

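At 10 µM against DMSO, 56 to 59 of the 59 genes were called lower under every alternative run, and no gene was called higher in any of the 3 comparisons under any alternative. The other counts moved with the setting, and so did the calls over all genes. At 5 µM, 37 genes were called lower in the fit of 3 groups, 59 when only the 2 groups were fitted, 16 at an adjusted p under 0.01, and 14 to 58 with 1 library left out, beside 5.81%, 20.7%, 2.56% and 2.43% to 17.6% of all genes. Between the doses the counts were 42, 17, 21 and 24 to 53 in the same order, beside 5.53%, 1.38%, 1.99% and 2.31% to 15.4% of all genes. A block on the replicate number gave 57, 32 and 39 calls for 10 µM, 5 µM and the doses, and since same-numbered libraries did not deviate together the number was not taken as a pairing. Of 546 values of the 26 genes given per library, 541 kept direction and call at 10 µM, 447 at 5 µM and 496 between the doses. Directions reversed only between the doses and for 3 genes not called there. CENPM (0.02) became -0.0027 with limma-voom, -0.13 with the length and GC trend removed, -0.087 without 5 µM replicate 3 and -0.17 without 10 µM replicate 1, and ran up to 0.19 with 1 library left out. PTTG1 (0.13) became -0.11 with the trend removed and -0.13 without 10 µM replicate 1, and ran up to 0.25 with 1 library left out. CDC25C (-0.12) became 0.076 without 10 µM replicate 3 and ran down to -0.40 with 1 library left out. The cause was not tested. Removing that trend also moved the median of the 59 genes at 10 µM from -0.96 to -1.13. Scalings moved the median of all genes by at most 0.05 on the log2 scale. Precision is limited by 3 libraries per group and by the spread of the 10 µM libraries, and the data cover 1 cell line and 1 time point.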
